A study of Mus musculus with 15 samples.

Results

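The 10 genes described here, Tyr, Tyrp1, Dct, Pmel, Mlana, Oca2, Slc45a2, Sox10, Mitf and Kit, are genes of the melanocyte, the pigment cell of skin and hair. They were taken by name from the 36528 genes of the count tables and followed through 15 RNA libraries of sorted mouse skin tumour cells, to ask whether they varied with treatment or from library to library. None of the 10 passed the test of a difference between treatment groups. The summed level of the 7 pigment genes differed 24.1-fold between the lowest and the highest library, and a very low and a high library occurred within each group.

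The mice carried K14Cre-ER, an inducible Cre recombinase driven in basal keratinocytes, with conditional Ptch1fl/fl and p53fl/fl alleles and an Lgr5GFP reporter, a genotype shared by every group. Ptch1 restrains the Hedgehog transducer SMO, and its loss in keratinocytes gives tumours resembling human basal cell carcinoma. Tumour cells were sorted from skin without drug (control, 4 libraries), at 6 days of the SMO inhibitor vismodegib (8 libraries) and at 14 days of vismodegib (3 libraries). Mouse ages, the sort gate, and what the controls received in place of drug were not given in the sources used here. Nothing in the labels ties the libraries of a group to separate animals, and each p-value is relative to library spread that may be technical.

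Melanocytes arise from the neural crest and reach the epidermis and the hair follicle, where they make melanin inside organelles called melanosomes and pass it to keratinocytes. The transcription factors SOX10 and MITF switch on the pigment programme, and the receptor tyrosine kinase KIT carries the survival and migration signal of its ligand, KIT ligand. Tyrosinase, TYRP1 and DCT catalyse steps of melanin synthesis, PMEL forms the fibrils on which melanin is laid down, MLANA acts in melanosome maturation, and OCA2 and SLC45A2 are melanosome membrane proteins that set its internal pH. Some of the genes are not private to melanocytes: Kit and Mitf are used by mast cells, Sox10 by Schwann cells, and Mitf by many other cells.

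MITF binds short DNA elements with the core CATGTG or CACGTG, and a longer form around CATGTG at pigment gene promoters is known as the M-box. The promoters of the 3 melanin synthesis genes are shown because MITF is known to act on them. In the measurements below their levels followed Sox10 closely and Mitf only loosely. Mitf was counted as a whole gene, so its separate start sites were not told apart, and the action of MITF was not tested. RefSeq windows on GRCm38.p6, from 250 bases before to 50 bases after the annotated start, were at hand for 6 of the 10 genes (9 windows in all). They are printed 5′ to 3′ on the strand of the gene, with CATGTG on either strand in capitals, for Tyr (chr7:87493463-87493762, minus strand), Tyrp1 (chr4:80833963-80834262, plus strand) and Dct (chr14:118052197-118052496, minus strand).
Tyr: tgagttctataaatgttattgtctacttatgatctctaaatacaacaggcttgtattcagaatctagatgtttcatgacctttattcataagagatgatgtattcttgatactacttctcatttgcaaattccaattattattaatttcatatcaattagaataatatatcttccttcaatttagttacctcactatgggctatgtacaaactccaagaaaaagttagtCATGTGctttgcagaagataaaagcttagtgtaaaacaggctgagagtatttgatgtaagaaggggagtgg
Tyrp1: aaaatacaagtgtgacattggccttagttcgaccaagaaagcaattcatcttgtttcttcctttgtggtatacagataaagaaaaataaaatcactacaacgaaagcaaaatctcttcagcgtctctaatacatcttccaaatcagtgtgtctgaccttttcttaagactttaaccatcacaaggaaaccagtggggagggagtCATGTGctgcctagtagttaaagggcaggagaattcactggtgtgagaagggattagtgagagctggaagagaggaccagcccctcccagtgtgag
Dct: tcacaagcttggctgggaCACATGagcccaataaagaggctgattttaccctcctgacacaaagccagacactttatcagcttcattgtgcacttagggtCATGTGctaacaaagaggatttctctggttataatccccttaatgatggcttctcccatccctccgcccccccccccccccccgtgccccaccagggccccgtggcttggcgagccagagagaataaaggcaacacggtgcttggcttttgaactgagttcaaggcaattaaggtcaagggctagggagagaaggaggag

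In the Tyr window CATGTG began 21 bases before the start, and in the Tyrp1 window 46 bases before it. In both it lay within AGTCATGTGCT, the longest stretch around CATGTG that the 2 windows share base for base. On either strand, and with the hexamer inside it, this stretch occurred in 7 of 32851 RefSeq windows of the same length (0.0213%), these 2 included. The other windows with it belonged to the complement gene C1qb and to 4 gene models with no established name. The Dct window held CATGTG on its own strand from 150 bases before the start and, on the opposite strand, in the 6 bases from position 232 before the start. It held no full copy of the 11-letter stretch, and around the own-strand CATGTG it differed from that stretch in the first letter alone. In Oca2 a single CATGTG lay on the opposite strand from 186 bases before the start, and the 3 Mitf and 2 Kit windows held none. The hexamer CATGTG was present on either strand in 14.2% of all windows and CACGTG in 7.15%, the latter in none of the 9 windows of these genes. A match describes the letters and is not a measured binding site. Windows of Pmel, Mlana, Slc45a2 and Sox10 were not analysed here.

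Total counts ran from 27336935 to 256569828 per library. Sample identifiers given by the submitters lie in 3 separate number ranges, and no label says that these are batches. In range A were controls 1 to 3 and 6-day libraries 1, 3, 4, 6 and 8 (27336935 to 38657170 counts), in range B control 4 and 6-day libraries 2, 5 and 7 (93183564 to 256569828 counts), and in range C the 3 14-day libraries. Range C and 14 days cannot be told apart, and ranges A and B cannot be told apart from depth. CPM is a count scaled to its library total, here after TMM correction, ± is the SD between libraries, and a count of 3 equals at most 0.11 CPM, a floor for counting error only. Basal keratins were abundant in every library, with Krt5 between 4625 and 14826 CPM and Krt14 between 1863 and 15553 CPM. RNA of basal keratinocytes is thus visible beside the pigment genes, and tumour identity rests on the labels.

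Dct, which encodes dopachrome tautomerase (Entrez 13190, GRCm38 chromosome 14, 118012790 to 118052246), was the most abundant of the 10. In controls 1 to 4 it stood at 56.8, 15.1, 310 and 204 CPM. At 6 days it ran from 20.5 CPM in library 8 through a median of 133 CPM to 435 CPM in library 2, and in 14-day libraries 1 to 3 it was 17.6, 204 and 149 CPM. Each group thus held 1 library far below its others, and the groups overlapped almost fully. The means were 146 ± 136 CPM (SD, n = 4), 162 ± 131 CPM (SD, n = 8) and 123 ± 95.6 CPM (SD, n = 3), with log2 fold changes of 0.15 (SE 0.79) at 6 days and -0.25 (SE 0.99) at 14 days against control (edgeR adjusted p = 0.980 and 0.915).

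Tyrp1, whose product acts late in eumelanin synthesis (chromosome 4, 80834123 to 80851736), showed the same libraries at the extremes. Its control values were 40.2, 8.11, 190 and 70.6 CPM. Its 6-day values ran from 9.01 CPM (library 8) through a median of 50.2 CPM to 180 CPM (library 2), and its 14-day values were 7.93, 75.9 and 53.8 CPM. The lowest library of each group was again control 2, 6-day library 8 and 14-day library 1. Tyr, for the rate-limiting enzyme of melanin synthesis (chromosome 7, 87424771 to 87493512), was less abundant and varied 102-fold. It was 5.96, 0.267, 16.9 and 9.66 CPM in the controls. At 6 days it ran from 0.166 CPM (6 counts, library 8) through a median of 5.47 CPM to 13.9 CPM (library 2), and at 14 days it was 0.527, 6.37 and 5.07 CPM. The highest Tyr library was a control and the lowest a 6-day library, and neither enzyme passed a treatment comparison (log2 fold changes -1.04 to -0.19 against control, edgeR adjusted p from 0.641 to 0.972).

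**Figure D1:**
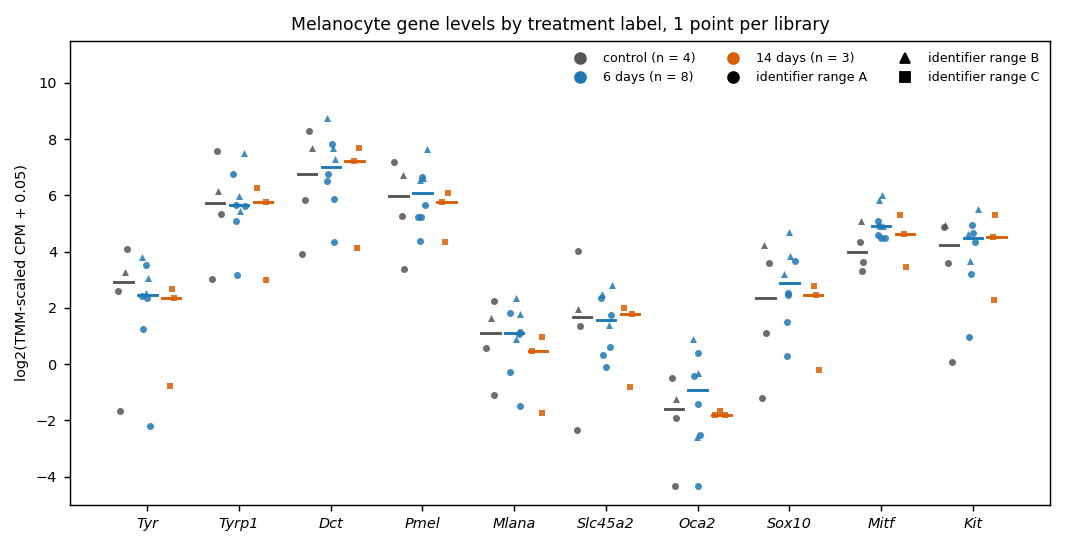
Level of each of the 10 genes in each library, as log2 of TMM-scaled CPM plus 0.05 (vertical axis), grouped by treatment label with the group median as a bar; point shape gives the identifier range. For most genes 1 control, 1 6-day and 1 14-day library lie far below the rest, and the 3 groups overlap for every gene.

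Pmel, the fibril protein gene (chromosome 10, 128695888 to 128720238), had control values of 38.7, 10.4, 146 and 105 CPM. At 6 days it ran from 20.7 CPM (library 8) through a median of 71.8 CPM to 201 CPM (library 2), and at 14 days it was 20.4, 68.1 and 54.4 CPM. The 6-day library 2 stood apart from the other 7 of its group, and otherwise the groups overlapped. The annotated span of Pmel overlaps Rab5b, Cdk2 and Dgka, and reads from overlapping stretches cannot be told apart because no source used here says whether strand was counted. Those neighbours' levels correlated with Pmel at r = 0.47, 0.40 and 0.50 over the 15 libraries, below every enzyme gene. Mlana (chromosome 19, 29697541 to 29708447) was scarcer, at 1.44, 0.416, 4.66 and 3.09 CPM in controls, 0.304 to 5.05 CPM (median 2.09 CPM) at 6 days and 0.253, 1.90 and 1.32 CPM at 14 days. It repeated the order of the enzymes, with control 2, 6-day library 8 and 14-day library 1 lowest. Log2 fold changes against control were 0.09 and -0.66 for Pmel and -0.01 and -1.05 for Mlana at 6 and 14 days (edgeR adjusted p of at least 0.526).

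Slc45a2 (chromosome 15, 11000721 to 11029233) ranged from 0.149 to 16.2 CPM. Both extremes were controls, which gave 2.52, 0.149, 16.2 and 3.87 CPM. At 6 days it ran from 0.876 CPM (library 6) through a median of 2.93 CPM to 7.05 CPM (library 2), and at 14 days it was 0.520, 3.41 and 3.94 CPM. Its lowest 6-day library differed from that of the enzymes, as library 8 held 1.47 CPM. Oca2 (chromosome 7, 56239593 to 56536518) was close to the floor, with 0 counts in control 3 and 6-day library 8 and at most 176 counts elsewhere. It was 0.217, 0.654, 0 and 0.369 CPM in controls, 0 to 1.82 CPM (median 0.513 CPM) at 6 days and 0.233, 0.264 and 0.236 CPM at 14 days. Control 3, the highest control for Tyr, Tyrp1, Dct and Pmel, was thus without an Oca2 read. Log2 fold changes against control were -0.74 and -1.11 for Slc45a2 and 1.04 and -0.35 for Oca2 (edgeR adjusted p from 0.581 to 0.906).

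Sox10, the neural crest transcription factor gene (chromosome 15, 79154913 to 79164490), stood at 2.11, 0.386, 12.1 and 18.7 CPM in controls. It ran from 1.16 CPM (library 8) through a median of 7.47 CPM to 26.2 CPM (library 2) at 6 days, and was 0.814, 6.81 and 5.39 CPM at 14 days. Kit (chromosome 5, 75574987 to 75656722) was 11.95, 1.01, 29.4 and 30.5 CPM in controls, 1.91 to 45.7 CPM (median 22.5 CPM) at 6 days and 4.79, 39.2 and 22.7 CPM at 14 days. For both genes the lowest and highest 6-day libraries were those of Dct. Log2 fold changes against control were 0.22 and -0.94 for Sox10 and 0.23 and 0.29 for Kit (edgeR adjusted p from 0.661 to 0.973).

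Mitf (chromosome 6, 97807002 to 98021360) behaved differently from the other genes in its spread. It was 12.3, 9.83, 20.1 and 33.8 CPM in controls, 22.3 to 64.9 CPM (median 30.3 CPM) at 6 days and 11.0, 39.8 and 24.8 CPM at 14 days, a 6.6-fold range in all. The 6-day library 8, the lowest of its group for 8 of the other 9 genes, held 33.6 CPM of Mitf, close to the highest control. Its 6-day mean was 35.6 ± 16.4 CPM (SD, n = 8) against 19.0 ± 10.8 CPM (SD, n = 4) in control, and 2 of 8 6-day libraries lay above every control. This log2 fold change of 0.91 (SE 0.42, edgeR unadjusted p = 0.0483, adjusted p = 0.389) was the nearest to a treatment difference among the 10. It was 0.90 within range A (edgeR adjusted p = 0.112) and 0.58 within range B, where a single control stands (0.510).

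Across the table, 236 of 18751 tested genes (1.26%) differed at 6 days against control, 1238 (6.6%) at 14 days against control and 730 (3.89%) at 14 against 6 days, by edgeR's quasi-likelihood test with Benjamini-Hochberg adjustment. All 10 melanocyte genes passed the filter on low counts and 0 were called in each comparison. At an unadjusted p under 0.05 the counts over all genes were 2377, 4370 and 4333. A test for any difference among the 3 groups called 1227 genes (6.54%) and again 0 of the 10, with adjusted p from 0.320 for Mitf to 0.974 for Kit. DESeq2 also called 0 of the 10 in each of these tests. The 3 comparisons share libraries, and their values for the genes are therefore given side by side and not as repeats.

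At 6 days 6 of the 10 log2 fold changes were positive, with a median of 0.12 beside 0.03 over all tested genes. At 14 days against control 8 of 10 were negative, from -1.11 (Slc45a2) to 0.41 (Mitf), with a median of -0.70 beside -0.02. At 14 against 6 days 9 of 10 were negative, with a median of -0.64 beside -0.06. The genes share their lowest 14-day library, so these are not 10 separate observations. Without 14-day library 1 the medians were -0.29 and -0.16, and without 14-day library 2 they were -1.15 and -1.10. Against control the 14-day median was also 0.04 without control 3, -0.35 without control 4 and -1.08 without control 2, and against 6 days it was -0.36 without 6-day library 2. The 6-day median ran from -0.28 without control 2 to 0.60 without control 3, and was also negative without control 1 (-0.15) or 6-day library 2 (-0.25). The 95% intervals reached from -2.48 to 3.33 at 6 days and from -3.50 to 2.39 at 14 days against control on the log2 scale, so changes of several-fold in either direction were not detectable at this spread. The intervals of Mitf were the narrowest, 0.01 to 1.81 at 6 days and -0.66 to 1.48 at 14 days.

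**Figure D2:**
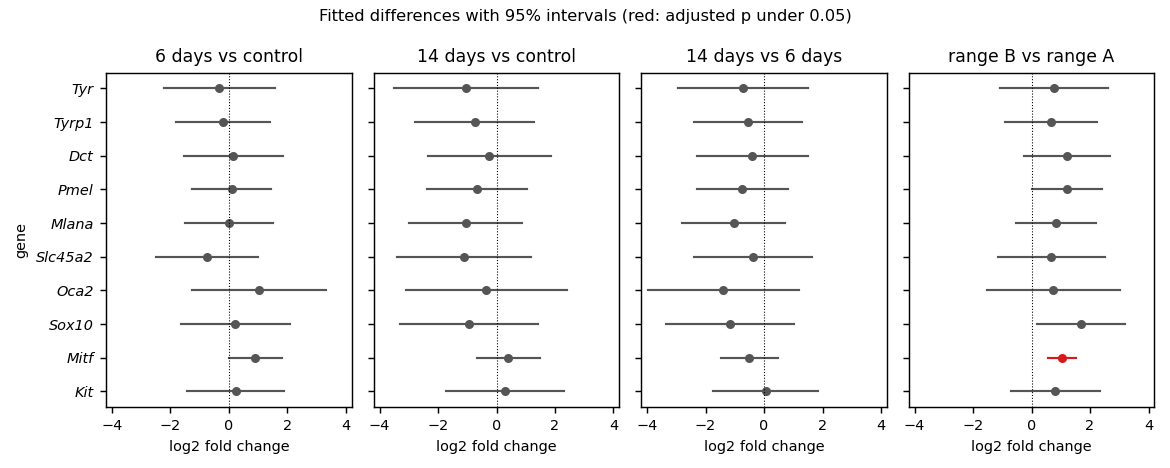
Fitted log2 fold change (horizontal axis) with its 95% interval for each gene in the 3 treatment comparisons and between identifier ranges B and A; red marks an edgeR adjusted p under 0.05. The only red point is Mitf between ranges, and treatment intervals of the other genes span several log2 units.

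Complete separation was also absent. Groups did not overlap in 504 genes of the table (2.69%) for 6 days against control, 4394 (23.4%) for 14 days against control and 2194 (11.7%) for 14 against 6 days, and in 0 of the 10 melanocyte genes for each. Among all tested genes a median of 21.2% of the variance of log2 CPM lay between treatment groups. For the 10 genes the median was 3.57%, from 1.47% (Slc45a2) to 29.9% (Mitf). Between identifier ranges it was 19.6% for the 10 genes and 43.0% for all genes. Most of the variation in these genes therefore lay among libraries carrying the same label.

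The spread within groups was wide for the level of the genes. The SD of log2 CPM within treatment groups had a median of 1.67 over the 10 genes and 0.58 over all tested genes. For Dct it was 1.63, larger than in 99.3% of the 3304 genes whose mean level lay within 2-fold of it. For Tyrp1 (1.54) that share was 98.7%, for Kit (1.71) 98.1%, for Pmel (1.23) 97.0%, for Tyr (2.19) 96.2% and for Sox10 (1.81) 94.7%. Slc45a2 (88.8%), Mitf (83.1%), Oca2 (82.1%) and Mlana (71.6%) were less extreme among genes of similar level. These shares describe the libraries and carry no test.

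**Figure D3:**
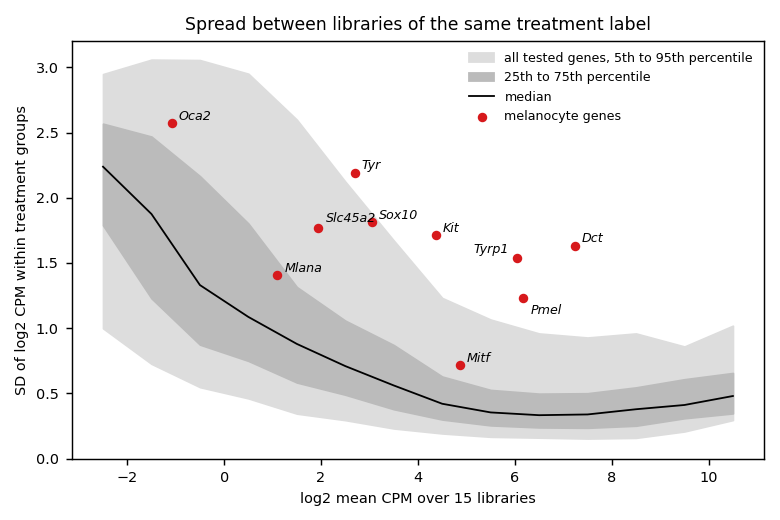
SD of log2 CPM between libraries of the same treatment label (vertical axis) against mean level (log2 of mean CPM, horizontal axis); grey bands and the line give all tested genes in bins of level. Dct, Tyrp1, Pmel, Kit and Tyr lie above the 95th percentile band of genes at their level, and Mitf lies within it.

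Summed over the 7 pigment genes (Tyr, Tyrp1, Dct, Pmel, Mlana, Oca2 and Slc45a2), the level was 146, 35.1, 683 and 396 CPM in controls 1 to 4. In 6-day libraries 1 to 8 it was 189, 844, 457, 204, 304, 147, 384 and 52.1 CPM, and in 14-day libraries 1 to 3 it was 47.5, 360 and 268 CPM. These sums were 0.00377 to 0.0804% of all counts. The low libraries were 1 of 4, 1 of 8 and 1 of 3 in the groups. In bulk RNA, fewer melanocytes and less pigment RNA per melanocyte cannot be told apart.

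**Figure D4:**
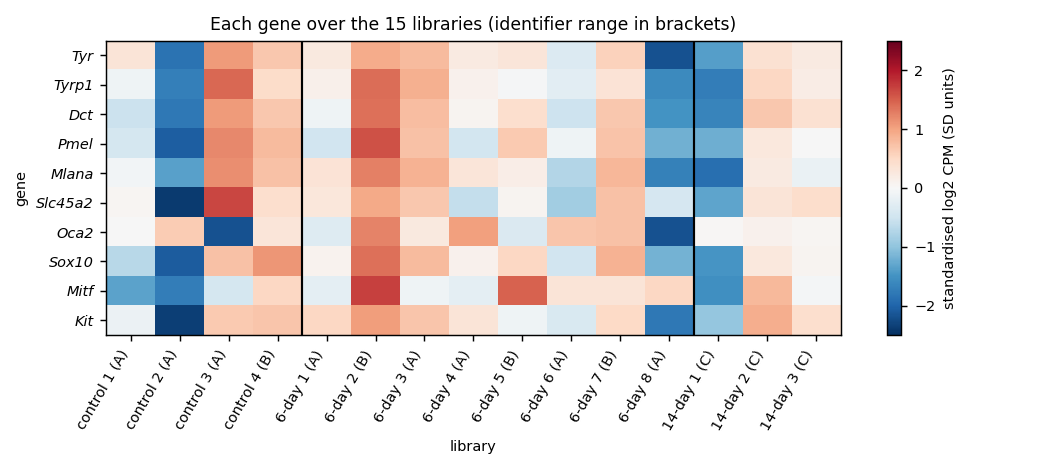
Each gene's log2 CPM in each library, standardised to SD units over the 15 libraries (colour), with black lines between treatment groups and the identifier range in brackets. Control 2, 6-day 8 and 14-day 1 are blue for most genes, 6-day 2 is red for all 10, and the rows of Oca2 and Mitf depart from the common pattern.

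All of the genes but Mitf and Oca2, 8 in number, went up and down in the same libraries. Over their 28 pairs Pearson's r of log2 CPM over 15 libraries had a median of 0.917 and ran from 0.823 to 0.969. In all, 45 pairs were computed and 31 passed a permutation test of r (adjusted p under 0.05 over the 45 pairs), 29 by Spearman's rho, the 28 pairs of these 8 genes among them in both. Dct and Sox10 had r = 0.969 and rho = 0.950, each with p = 1e-05, the smallest that 100000 resamples can give (adjusted p = 2.37e-05 for r). Dct and Tyrp1 had r = 0.968 (p = 1e-05) and rho = 0.950 (p = 2e-05). Without the 2 libraries farthest from the median of the first gene, Dct with Sox10 gave r = 0.946 and Tyrp1 with Dct r = 0.939. Within range A alone (n = 8, exact permutation test) they gave r = 0.974 and 0.990. The 28 pairs had medians of 0.890 and 0.936 under these restrictions, and 28 of 28 passed for r in each, while by rho within range A 20 passed.

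These relations were weaker without the 3 libraries of lowest summed level, a setting chosen after the values were seen. The median r over the 28 pairs was then 0.816, and 27 of 28 passed. Mitf followed the other genes more loosely. Its 8 pairs, Oca2 left aside, had a median r of 0.517, and Dct with Mitf had r = 0.640 (permutation p = 0.0106, adjusted p = 0.0154) and rho = 0.511 (p = 0.0539). Without the 2 farthest libraries (control 2 and 14-day library 1) that r was 0.330, within range A 0.245, and without these 2 and 6-day library 8 it was 0.544 (adjusted p = 0.0960). The relation of Mitf with Dct thus moved with the libraries included. None of the 8 pairs of Mitf passed in these settings. Oca2, at 0 to 176 counts, had a median r of 0.145 over its 9 pairs, and 0 passed. The cause was not tested.

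**Figure D5:**
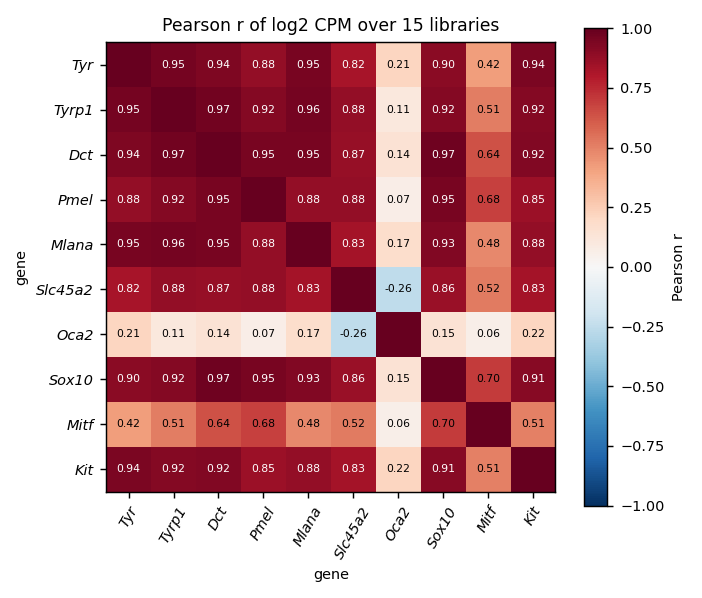
Pearson's r of log2 CPM over the 15 libraries for each pair of genes (colour and number). The 8 genes other than Oca2 and Mitf form a block with r of at least 0.82, and the Mitf row runs from 0.42 to 0.70 outside Oca2.

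Ratios of counts within a library show where the genes did not keep in step. Dct to Tyrp1 stayed between 1.41 and 3.65 in the 15 libraries, a 2.58-fold range beside the 28.8-fold range of Dct itself. Pmel to Dct ran from 0.334 to 1.16, highest in 14-day library 1 and 6-day library 8, where both were low. Tyr to Dct varied 12.9-fold, lowest in 6-day library 8 at 0.00811, and Mitf to Dct 25.3-fold, from 0.0648 in control 3 to 1.64 in 6-day library 8. Mitf counts exceeded Dct counts in that library alone. Counts are not scaled by gene length, and with that scaling (deposited RPKM) Dct stayed above Mitf there, at 7.40 beside 4.34.

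Levels of different genes can be compared per length. Mean deposited RPKM, a read count scaled by gene length and library size, over 15 libraries was 55.0 ± 43.5 (SD) for Dct, 26.5 ± 19.3 for Pmel and 19.1 ± 16.3 for Tyrp1. A lower tier held Mlana (3.88 ± 2.76), Mitf (3.79 ± 2.02), Kit (3.33 ± 2.17) and Sox10 (2.49 ± 2.23), and the lowest held Tyr (0.829 ± 0.638), Slc45a2 (0.696 ± 0.721) and Oca2 (0.101 ± 0.108). Each gene differed from its neighbour in this order by less than the larger of the SDs. These SDs are spread between libraries and do not measure the order within a library. Within single libraries Tyrp1 lay above Mlana in every one, whereas Mlana and Mitf changed places. The order was not tested.

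The comparison of identifier ranges used the 12 control and 6-day libraries, with the treatment group in the model. It called 7757 of 17843 tested genes (43.5%) and 1 of the 10, Mitf. Mitf was 2.07-fold higher in range B (46.5 ± 17.1 CPM, n = 4) than in range A (21.8 ± 8.06 CPM, n = 8), with a log2 fold change of 1.05 (SE 0.23, edgeR adjusted p = 0.00223). The lowest range B library had 30.2 CPM and the highest range A library 33.6 CPM, so the ranges overlapped slightly. All 10 genes had positive values, from 0.65 (Tyrp1) to 1.69 (Sox10, SE 0.69, edgeR adjusted p = 0.0641), with a median of 0.82 beside 0.02 over all genes (0.52 without 6-day library 2). Pmel (1.22, 0.0928) and Dct (1.21, 0.172) did not pass either. Given that 43.5% of all genes passed, a single call among 10 is below the background share.

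Without control 3, which had the highest Dct and Pmel of range A, Dct (log2 fold change 1.71, edgeR adjusted p = 0.0260), Pmel (1.59, 0.0105) and Sox10 (2.24, 0.0175) were also called between ranges. Sox10 was also called without control 2 (1.53, 0.0486) or 6-day library 3 (2.03, 0.0323). The Mitf call was kept in 16 of 16 alternatives. Whether the 6-day effect differed between the ranges was tested as well, with 10 of 17843 genes called (0.056%) and 0 of the 10 melanocyte genes (adjusted p from 0.792 to 0.969, and 1923 genes at an unadjusted p under 0.05). Range B held a single control.

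The genes outside the 10 whose pattern was most like the pigment genes were sought among 13552 named genes that averaged 0.5 CPM or more, using the mean standardised log2 CPM of the 7 pigment genes over 15 libraries as the profile. Pax3, a transcription factor gene of the neural crest and of melanocyte precursors, was nearest at r = 0.957 (0.267 to 16.8 CPM). It was followed by Enpp2 (0.940), which encodes the lysophospholipase autotaxin, the synaptotagmin gene Syt4 (0.938), the homeobox gene Alx1 (0.937) and Mcoln3 (0.927), an endolysosomal channel gene. Car14 (0.917), a carbonic anhydrase gene, the complement gene C4b (0.916), the kinase gene Dclk2 (0.913), the metalloproteinase gene Mmp16 (0.908) and the transporter gene Abca8a (0.894) completed the 10 nearest. Over all genes compared the median r was -0.01, and 22 exceeded 0.8. Among the 10 melanocyte genes the values were 0.982 for Dct, 0.957 for Sox10 and 0.940 for Kit, but 0.558 for Mitf and 0.245 for Oca2, and the 7 pigment genes are part of the profile.

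Taken singly, Kit was most like Enpp2 (r = 0.975), Mcoln3 (0.958) and Pax3 (0.956). Sox10 was most like Car14 (0.960), Pax3 (0.945) and Ptgds (0.940), a prostaglandin D synthase gene. Mitf had other neighbours, Igsf10 (0.931), Fchsd1 (0.90) and Mtmr11 (0.897), and the last of these averaged 350 CPM, far above any pigment gene. These likenesses are descriptions over 15 libraries that share depth and range differences.

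A list of 12 other melanocyte genes varied less in sum, from 65.8 to 255 CPM. Its second highest library, 14-day library 1 at 237 CPM, was among the lowest for the pigment genes. There Mreg alone held 160 CPM, its highest level in any library. All 12 were tested and 0 were called in each treatment comparison, with medians of 0.12 at 6 days and 0.06 at 14 days against control. Pax3, Mcoln3, Tspan10 (0.868) and Gpnmb (0.835) followed the pigment profile. Mreg, a melanosome transport regulator that was the most abundant of the list at 43.3 CPM, did not (r = -0.25). Slc24a5 (r = 0.408), an ion exchanger gene of the melanosome and per length the most abundant of the list, was higher in range B (log2 fold change 0.71, edgeR adjusted p = 0.0303), as were Mlph (2.74, 0.00167), a melanosome-to-myosin linker gene, and the channel gene Trpm1 (1.87, 0.0141). These are 3 of 12, beside 43.5% called over all genes.

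The machinery of melanosome biogenesis and transport, which is used widely for lysosome-related organelles, had a summed level over its 18 genes of 687 to 1037 CPM, a 1.51-fold range. Single members varied more, such as the small GTPase genes Rab32 (9.33 to 118 CPM) and Rab38 (9.68 to 96.0 CPM). At 6 days 0 of 18 were called. The endosomal tethering gene Vps33a was higher at 14 days than in control (log2 fold change 0.71, edgeR adjusted p = 0.0203) and than at 6 days (0.63, 0.0299). It was 1 of 18 in each, beside 6.6% and 3.89% called over all genes. Between ranges 5 of 18 were higher in range B and 3 lower, beside 43.5% called over all genes, Myo5a (1.19, edgeR adjusted p = 1.59e-05) and Ap3d1 (0.73, 9.56e-05) among the first. Ap3d1 and Ap3b1, adaptor subunits of the sorting route to melanosomes, were the most abundant per length.

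Of the 10 signals that act on melanocytes, 9 were matched and 5 passed the filter. Edn1, which encodes endothelin-1, a melanocyte mitogen made by keratinocytes, was the 1 called for treatment. It was lower at 6 days than in control (log2 fold change -1.70, SE 0.35, edgeR adjusted p = 0.0299), at 14 days than in control (-4.33, SE 0.54, 0.00170) and at 14 than at 6 days (-2.62, SE 0.47, 0.0111). In each it was 1 of 5 tested, beside 1.26%, 6.6% and 3.89% called over all genes. Across libraries Edn1 ran from 2.49 to 144 CPM and showed r = -0.06 with the pigment profile. Kitl, the KIT ligand gene, was present in every library at 19.9 to 61.1 CPM and was not called for treatment. It was higher in range B (0.73, edgeR adjusted p = 0.0120), as was the growth factor gene Fgf2 (2.10, 0.0176). These are 2 of 5 tested, beside 43.5% called between ranges over all genes. Edn3, the other endothelin of melanocyte development, had at most 3 counts in any library, and Dkk1 had 0 in all 15. Of the MITF family, Tfeb and Tfe3 were measured and 0 were called for treatment, while Tfec had at most 1 count. Tfe3 was higher in range B (0.56, edgeR adjusted p = 0.000934), which is 1 of 2 tested beside the same 43.5%.

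Markers of other cell types that share some of these genes were read in the same libraries. Of 11 mast cell markers, Cpa3, Mcpt4, Fcer1a, Ms4a2 and Tpsab1 had 0 counts in all 15 libraries, and only Hdc and Hpgds passed the filter. The summed list was 4.84 to 79.3 CPM in control, 2.09 to 59.8 CPM at 6 days and 50.9 to 174 CPM at 14 days, nearly all of it Hpgds (up to 173 CPM). Of the others, Cma1 had 14 counts and Tpsb2 1 count, each in 1 library, and Gata2 and Mrgprb2 had at most 17 and 21 counts. The part of mast cells in the Kit and Mitf results was not tested.

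Of the 11 Schwann cell and glial genes, which share Sox10, all were tested and summed to 142 to 337 CPM in control, 145 to 214 CPM at 6 days and 199 to 438 CPM at 14 days. Most of that was Erbb3, which was at 84.1 to 312 CPM and had r = -0.25 with the pigment profile. Foxd3, a neural crest transcription factor gene, followed the profile at r = 0.847 and the cadherin gene Cdh19 at 0.766, whereas Mbp (-0.03) and Ngfr (0.11) did not. Gfra3, 1 of the 11, was called lower at 14 days than in control (log2 fold change -3.84, edgeR adjusted p = 0.00760), beside 6.6% of all genes called. At 6 days 0 of the 11 were called. In 14-day library 1, the lowest of its group for the pigment genes, the glial sum was the highest of all, at 438 CPM. Most of it was Erbb3 (312 CPM) and Mbp (69.7 CPM), each at its highest level there. The part of these genes in the Sox10 result was not tested.

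Macrophage genes, which include users of Mitf and Gpnmb, were scarce, with a sum of 4.04 to 14.3 CPM in control, 1.22 to 9.36 CPM at 6 days and 22.7 to 34.4 CPM at 14 days. C1qb and Adgre1, 2 of 7 tested, were called higher at 14 days than in control, beside 6.6% of all genes called. C1qa, C1qb, Csf1r and Adgre1, 4 of 7, were called higher than at 6 days, beside 3.89% of all genes. The edgeR adjusted p of these calls ran from 0.00866 to 0.0311. Of these genes C1qb had r = -0.32 with the pigment profile, and Adgre1 was at 0 in 11 of 15 libraries. Cd68, the most abundant of the list per length (0.830 to 8.55 CPM), had r = 0.47 with the profile. It was not called, with 14-day log2 fold changes of -0.18 against control and -0.02 against 6 days. Summed fibroblast genes stayed at 4.06 to 21.7 CPM, endothelial genes at 0.656 to 5.75 CPM and lymphocyte genes at 0.0813 to 4.28 CPM, with 0 called for treatment in each. The keratinocyte and tumour list held 21068 to 42433 CPM and had Krt15 called higher at 6 and at 14 days against control. That is 1 of 6 tested in each, beside 1.26% and 6.6% of all genes. Hair shaft and inner root sheath genes, which are used in the lower hair follicle where follicular melanocytes sit, summed to 20.8 to 88.1 CPM, with 0 of 8 tested called for treatment. Their abundant members Tchh (r = -0.30), Krt71 (0.01) and Krt27 (0.01) did not follow the pigment genes.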

How the data were processed

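PolyA RNA of 15 libraries was analysed from deposited tables with 1 row per gene. Per the file headers, counts are reads uniquely aligned to a gene, and the RPKM values deposited by the authors are adjusted by size factor. RPKM divided by count was a gene factor times a library factor (relative deviation at most 8e-15). Reads were aligned with GSNAP to GRCm38, per the submitters' processing notes. No source used here gives versions, annotation or strand handling. Of 36528 Entrez identifiers, 31049 matched a RefSeq symbol of GRCm38.p6 and 5479, with 1.24 to 1.59% of counts, did not. All 10 genes matched, and Asip and Krt85 of the lists did not.

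The test of counts was that of edgeR 4.0.16 under R 4.3.3 (quasi-likelihood F test, TMM factors, filterByExpr by group) in a single fit of the 3 treatment labels over 15 libraries, with 18751 genes, 12 residual degrees of freedom and Benjamini-Hochberg adjustment at 0.05 over all tested genes. A second fit of group plus identifier range used the 12 control and 6-day libraries. RPKM values entered no test. Log2 CPM used a prior count of 0.5. Intervals are 95%, and permutation tests are two-sided with 100000 resamples (exact within range A). Total counts were 27336935 to 256569828, and every one of 105 library pairs differed beyond sampling noise (chi-square over its degrees of freedom at least 56.76). Intervals and floors cover counting error or the spread between libraries, and PCR duplicates are not marked. The edgeR fit of the treatment groups was tested on simulated counts, with spread set by the level of a gene and not gene by gene. Other steps were not tested on simulated data.

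The genes and lists were chosen with earlier results of these data known. All 10 genes are named, with the 10 genes most like the pigment profile, the 3 most like Mitf, Kit and Sox10 each, and from each list up to 4 called members and the 2 most abundant per length. Other list members are named as cell type markers or for their values. Alternatives were RLE factors, DESeq2 1.42.0, no filter on low counts, range B as a covariate, single ranges, fewer groups, each library left out in turn, a prior of 2, and, added after the values were seen, correlations without 3 libraries. Figures were drawn with matplotlib 3.10.9, and other steps ran in Python 3.11.15 (scipy 1.17.1, pandas 2.3.3, numpy 2.4.6).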

Additional observations from a re-analysis of the deposited data

Results flagged for a closer look

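Pmel at 6 days had 1 library far from the others of its group: library 2 held 201 CPM, beside a group median of 71.8 CPM and a mean of 79.9 ± 57.9 CPM (SD, n = 8). The same library was also the highest of its group for the other 9 genes. The gap was tested in 20 sets of 4 or 8 libraries (10 genes, control and 6 days), of which chance flags about 1 in 20. With and without it, 0 of the 10 genes were called for treatment.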

How the results depend on the processing

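In 22, 21, 21 and 19 alternatives, 0 of the 10 genes were called at 6 days against control, 14 days against control, 14 against 6 days and among the 3 groups, DESeq2 included. Leaving out each library in turn gave 0 to 0 such calls, and 1 to 4 between ranges. Counts over all genes moved more. At 6 days 236 became 866 with range B as a covariate, 468 in range A and 846 by DESeq2 (69 to 308 over libraries left out). At 14 days against control 1238 became 3196 with the covariate, 374 with the 2 groups alone and 2752 by DESeq2 (376 to 1438). At 14 against 6 days 730 became 460 with no filter, 2036 with the covariate, 143 with range A libraries at 6 days and 2609 by DESeq2 (3 to 1138). Any difference gave 1227, then 3373 with the covariate and 3138 by DESeq2 (390 to 1547). Between ranges 7757 genes were called (6584 to 8030), with 2 of the 8 melanocyte genes that passed the filter in the 8 6-day libraries alone (adding Pmel, 1.40, edgeR adjusted p = 0.0274) and 2 of 10 by DESeq2 (adding Sox10, 1.67, DESeq2 adjusted p = 0.0285). The cause of these moves was not tested. The median share of variance between groups was 3.68% with a prior of 2. No result changed direction past a threshold. Of the 45 gene pairs 31 passed, 28 without the 2 farthest libraries or in range A, and 27 without the 3 lowest. No paired analysis was possible because the labels give no replicate numbers. Depth limits Oca2 most, at 0 to 176 counts.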

Other observations

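The ratio of Dct to Tyrp1 counts differed between identifier ranges. The 8 libraries of range A gave 1.41 to 2.27, the 4 of range B gave 2.41 to 3.65 and the 3 of range C gave 2.22 to 2.77. Ranges A and B did not overlap, in control as at 6 days. This was noticed after the values were seen and was not tested. For Sox10 to Dct, range A gave 0.0256 to 0.0603, range B 0.0586 to 0.0920 and range C 0.0334 to 0.0463.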
